A study of Mus musculus with 2 samples.

Results

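Inhibitory receptors on the surface of myeloid cells were described here through 8 genes, Siglech, Siglece, Cd33, Sirpa, Cd200r1, Lair1, Pilra and Cd300a, which were picked by symbol from the 55357 genes of the deposited matrices. All 8 were found. Cortical cells of mice aged 8 weeks had been sorted as CD45+CD11b+ and sequenced one by one in droplets, from the 3′ ends of their transcripts. There were 2 libraries, 1 from moesin knockout (Msn) mice and 1 from wild-type mice, each made from the pooled cortices of 5 to 6 animals. Knockout animals were C57BL/6, per the series' design. Strain of the wild-type animals, sex, and which part of Msn was deleted: none of these is given in the sources used here. With 1 library per genotype, genotype and library cannot be told apart, no test between genotypes was possible, and every interval below is an exact 95% interval that covers counting error only.

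Inhibitory receptors let myeloid cells read signals of healthy tissue. Most carry cytoplasmic tyrosine motifs that, once phosphorylated by Src-family kinases, recruit the phosphatases SHP-1, SHP-2 or SHIP1 and dampen activating receptors. In brain, microglia use them to sense sialic acids on neighbouring cells through Siglecs, CD47 through SIRPα and neuronal CD200 through CD200R1. Siglec-H lacks an inhibitory motif of its own and pairs with the activating adaptor DAP12, the product of Tyrobp.

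The promoters of 6 of the 8 genes were present in the RefSeq promoter table (build GRCm38.p6), which holds the 250 bases before and the 50 bases after each transcription start. Siglech and Lair1 are shown because their RNA was highest in microglia, and Pilra and Cd300a because theirs was highest in monocytes. Capitals mark GAGGAA or its reverse complement TTCCTC, a core motif bound by PU.1, the ETS-family factor of myeloid cells. Sequences read 5′ to 3′ on the strand of the gene.
Siglech: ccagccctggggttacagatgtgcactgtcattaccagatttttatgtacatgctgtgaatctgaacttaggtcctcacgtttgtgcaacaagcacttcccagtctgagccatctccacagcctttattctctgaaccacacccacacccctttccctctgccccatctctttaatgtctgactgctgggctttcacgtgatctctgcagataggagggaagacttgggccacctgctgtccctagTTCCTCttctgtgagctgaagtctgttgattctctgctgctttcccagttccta
Lair1: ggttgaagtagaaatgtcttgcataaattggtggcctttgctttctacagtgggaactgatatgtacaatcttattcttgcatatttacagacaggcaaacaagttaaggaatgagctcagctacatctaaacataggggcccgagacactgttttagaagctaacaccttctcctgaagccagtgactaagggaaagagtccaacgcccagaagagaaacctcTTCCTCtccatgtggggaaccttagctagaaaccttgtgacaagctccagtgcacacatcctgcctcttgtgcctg
Pilra: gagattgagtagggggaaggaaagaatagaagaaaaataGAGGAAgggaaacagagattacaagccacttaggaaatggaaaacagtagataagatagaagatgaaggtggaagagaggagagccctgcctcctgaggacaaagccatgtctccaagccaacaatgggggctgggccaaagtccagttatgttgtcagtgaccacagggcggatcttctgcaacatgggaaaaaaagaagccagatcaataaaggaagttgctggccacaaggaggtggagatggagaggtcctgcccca
Cd300a: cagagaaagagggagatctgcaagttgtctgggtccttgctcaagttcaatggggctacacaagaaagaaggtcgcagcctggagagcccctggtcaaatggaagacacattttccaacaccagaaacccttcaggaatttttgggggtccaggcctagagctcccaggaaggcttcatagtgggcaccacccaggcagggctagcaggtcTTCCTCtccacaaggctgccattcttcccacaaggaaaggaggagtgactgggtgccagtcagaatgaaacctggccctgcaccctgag
These windows lie at chr7:55767934-55768233 (plus strand), chr7:4063155-4063454 (minus strand), chr5:137836229-137836528 (minus strand) and chr11:114889791-114890090 (plus strand), in the order printed. The first base of the match stood at position −4 relative to the start in Siglech, −26 in Lair1, −211 in Pilra and −39 in Cd300a. All 6 promoters, the microglial and the monocytic ones alike, held at least 1 match on either strand. Of 32851 promoters of the same length, 28.3% held one. The match is a description of these letters and does not show that a factor binds there.

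Classes were defined by a few gate genes, none of them a receptor described here. Microglia had at least 1 UMI (unique molecular identifier, 1 captured transcript) of both P2ry12 and Tmem119. Monocytes had at least 2 UMIs of Ace and Ly6c2 together, and were split by which of these led: Ace marks patrolling and Ly6c2 classical monocytes. Border macrophages, the macrophages of meninges and perivascular spaces, had both Mrc1 and Pf4. Cells that passed more than 1 gate were set aside. The gates took 4608 microglia, 538 monocytes (349 Ace-led, 171 Ly6c2-led) and 135 border macrophages in the knockout library, and 5004, 47 (20 and 27) and 24 cells in the wild-type library. The remaining 18 knockout monocytes had equal UMIs of both genes. Levels are CPM, a gene's share of all UMIs of a class scaled to a mega-count. Since each UMI counts 1 molecule at its 3′ end, levels of different genes were set side by side without a length correction.

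The libraries held 67575835 UMIs (knockout) and 68576464 UMIs (wild-type), with medians of 5606.5 and 7251 UMIs per gated microglial cell, and 13 barcodes occurred in both. Msn stood at 20.9 CPM in knockout and 321 CPM in wild-type microglia, at 49.6 and 792 CPM in monocytes and at 8.08 and 271 CPM in border macrophages. The 10 microglial markers, which include the gate genes, summed to 27672 CPM in knockout and 27429 CPM in wild-type microglia. Markers of some other cells were more abundant in knockout than in wild-type microglia. Neutrophil markers summed to 219.5 and 17.9 CPM, erythroid markers to 693 and 88.2 CPM, and choroid plexus and ependymal markers to 83.5 and 1.20 CPM. Markers of oligodendrocytes (19.98 and 27.4 CPM), astrocytes (0.195 and 1.32 CPM) and neurons (0.278 and 0.519 CPM) were instead lower in knockout microglia. Among monocytes, the knockout Ly6c2-led cells held neutrophil markers at 5229 CPM (5 of 5 detected), against 90.01 CPM (2 of 5) in wild-type cells, where S100a8, Ly6g and Retnlg were at 0. The knockout Ace-led cells held choroid and ependymal markers at 1212 CPM, against 0 in wild-type cells. The part of these cells in the genotype differences below was not tested, except where values without them are given.

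Together the 8 receptors made up 1390 CPM of knockout and 1425 CPM of wild-type monocytes, 1030 and 1197 CPM of border macrophages and 2692 and 3424 CPM of microglia. The classes were divided by which receptors supplied that RNA. Cd300a led in monocytes, and Sirpa led in border macrophages. Siglech, Sirpa and Lair1 were the 3 most abundant in microglia of both libraries. These orders concern 1 library per genotype and have no replicate check.

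**Figure D1:**
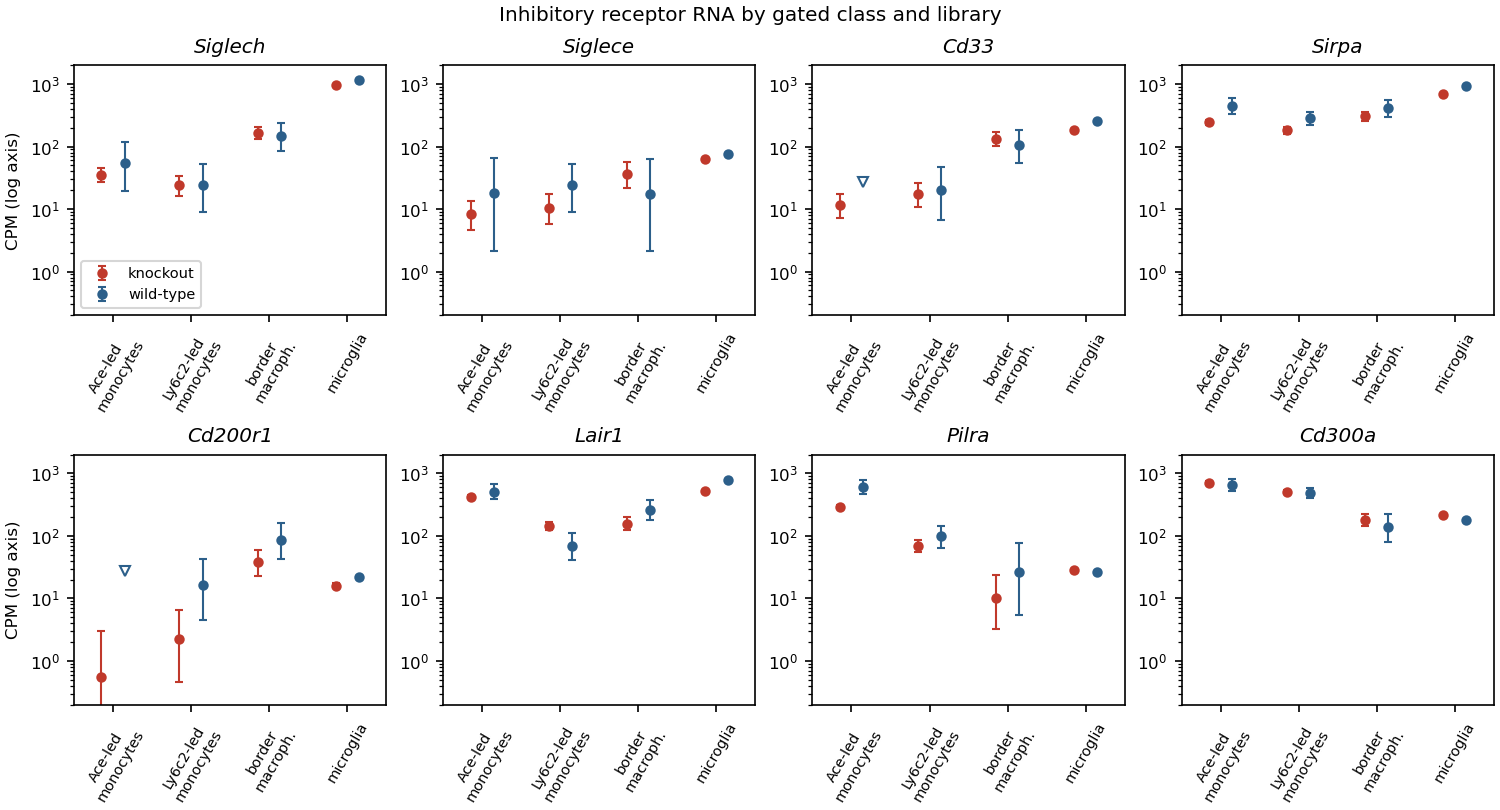
RNA level of each receptor (CPM, log axis) in Ace-led monocytes, Ly6c2-led monocytes, border macrophages and microglia of the knockout (red) and wild-type (blue) libraries. Points are summed counts over the class with exact 95% Poisson intervals, and open triangles mark the level of 3 UMIs where a gene had no UMI; the lower end of the knockout Ace-led interval of Cd200r1 (1 UMI) lies off the axis. Siglech is highest in microglia in both libraries, while Pilra and Cd300a peak in Ace-led monocytes.

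The Siglecs were each highest in microglia in both libraries. Siglech (chromosome 7, 55417926 to 55429195, GRCm39, plus strand) stood at 31.5 CPM in knockout and 33.7 CPM in wild-type monocytes and at 168 and 149 CPM in border macrophages, against 970 and 1161 CPM in microglia. Monocytes thus held 3.24% (2.64 to 3.94) of the microglial level in the knockout library and 2.91% (1.5 to 5.08) in the wild-type library.

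Other microglial genes left a trace of similar size in the same cells. Olfml3, Sparc, Sall1 and Gpr34, microglial genes that no gate used, summed in monocytes to 2.54% (2.36 to 2.73) of their microglial level in the knockout library and 3.74% (3.06 to 4.53) in the wild-type library, with single genes at 2.35 to 5.69% and 3.38 to 4.78%. In border macrophages Siglech was at 17.3% (13.8 to 21.4) and 12.8% (7.45 to 20.5) of its microglial level, and the same 4 genes spanned 11.8 to 21.0% and 2.70 to 18.1%. Summed, the 4 genes stood there at 13.9% (12.8 to 15) and 8.17% (6.40 to 10.3). The Siglech share thus lay within the span of the 4 genes in both classes, except in wild-type monocytes, where it was below. Against their summed share it was higher in knockout monocytes and in border macrophages of both libraries. Whether these cells express Siglech was not tested. In the 70 knockout cells of a gate for lymphocytes and plasmacytoid dendritic cells, Siglech was at 48.8 CPM, 5.03% (2.93 to 8.06) of the microglial level, beside 3.63% (2.99 to 4.36) for the 4 genes. The wild-type library had no cell in that gate.

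Cd33 (chromosome 7, 43173634 to 43193875, minus strand) also encodes a Siglec. It stood at 133 CPM (103 to 170) in knockout and 105 CPM (54.2 to 183) in wild-type border macrophages, against 187 and 255 CPM in microglia. That is 71.2% and 41.1% of the microglial level. Both shares were above those of the 4 microglial genes, of which Gpr34 was the highest at 21.0% (17.6 to 24.8) and 18.1% (12 to 26.2). The intervals of Cd33 (55.0 to 90.7 and 21.2 to 71.9) were apart from those of Gpr34 in the knockout library only. From the 4 genes summed, at 13.9% (12.8 to 15) and 8.17% (6.40 to 10.3), they were apart in both libraries. The neighbour of Cd33, Siglece (43298405 to 43309607, minus strand), whose product is a Siglec with inhibitory motifs, lies 104.53 kb away. Siglece rested on 18 UMIs in knockout and 2 in wild-type border macrophages, at 36.4 and 17.5 CPM, against 63.6 and 77.0 CPM in microglia.

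In monocytes both were scarce. Cd33 stood at 13.6 CPM in knockout and 14.1 CPM in wild-type monocytes, 7.25% (5.26 to 9.74) and 5.51% (1.79 to 12.9) of the microglial level. Siglece stood at 8.94 and 22.5 CPM, from 29 and 8 UMIs, or 14.1% (9.40 to 20.3) and 29.2% (12.6 to 57.6). In knockout monocytes both shares lay above the highest of the 4 microglial genes, Sall1 at 5.69% (3.78 to 8.24, 28 UMIs), with intervals apart for Siglece only. Against the 4 genes summed, at 2.54% (2.36 to 2.73), the intervals of both receptors were apart. In wild-type monocytes, where the 4 genes summed to 3.74% (3.06 to 4.53), only that of Siglece was apart. In the knockout lymphoid gate Cd33 was at 7.67% (2.49 to 17.9) and Siglece at 13.6% (2.79 to 39.7) of the microglial level, on 5 and 3 UMIs. Whether free RNA gives these monocyte UMIs was not tested. No Cd33 UMI was seen in the 20 wild-type Ace-led cells, where 3 UMIs would be 26.9 CPM and the exact upper limit is 33.1 CPM.

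Sirpa (chromosome 2, 129434039 to 129474148, plus strand), whose product binds the "don't eat me" signal CD47, was shared by all classes. It stood at 216 CPM in knockout and 337 CPM in wild-type monocytes and at 307 and 411 CPM in border macrophages, against 694 and 936 CPM in microglia. Border macrophages held 44.3% (37.5 to 51.9) and 43.9% (32.2 to 58.4) of the microglial level. Monocytes held 31.2% (28.9 to 33.6) and 36.0% (29.9 to 43.1). In knockout cells the order was microglia, then border macrophages and Ace-led monocytes, whose intervals overlapped, then Ly6c2-led monocytes; in wild-type cells no class below microglia was apart from the next.

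Lair1 (chromosome 7, 3995928 to 4066269, minus strand), a receptor for collagens and for the complement protein C1q, was carried by Ace-led monocytes and microglia above all. Ace-led monocytes held 412 CPM (383 to 442) in the knockout and 512 CPM (387 to 663) in the wild-type library. Ly6c2-led monocytes had far less, at 142 CPM (123 to 164) and 69.6 CPM (40.5 to 111), so Lair1 separated the monocyte subsets in each library by 2.89-fold (2.46 to 3.41) and 7.36-fold (4.22 to 13.5). Border macrophages lay at 158 CPM (125 to 197) and 262 CPM (177 to 374), overlapping with Ly6c2-led cells in the knockout library only. Microglia held the highest level, 519 and 769 CPM.

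Cd200r1 (chromosome 16, 44586096 to 44615343, plus strand), the receptor for CD200, was the scarcest receptor in microglia. It was the only one of the 8 above its microglial level in border macrophages of both libraries, at 38.4 CPM (23.1 to 59.9, 19 UMIs) in knockout and 87.4 CPM (41.9 to 161, 10 UMIs) in wild-type cells, against 16.1 and 21.9 CPM in microglia. The ratio to microglia was 2.39-fold (1.43 to 3.77) and 3.99-fold (1.91 to 7.36). Monocytes gave 4 UMIs in each library.

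Cd300a (chromosome 11, 114768840 to 114795480, plus strand), which binds phosphatidylserine and phosphatidylethanolamine on dying cells, was the leading receptor of monocytes. It stood at 625 CPM in knockout and 540 CPM in wild-type monocytes, against 214 and 179 CPM in microglia. The monocytes were 2.92-fold (2.78 to 3.06) and 3.01-fold (2.60 to 3.47) above the microglia of their library. Ace-led cells held 703 and 655 CPM, and Ly6c2-led cells 507 and 487 CPM; in wild-type cells these subsets overlapped. Border macrophages, at 180 and 140 CPM, overlapped with microglia in both libraries. After thinning every cell to 2000 UMIs, 70.5% of knockout and 68.1% of wild-type monocytes had a Cd300a UMI, as did 33.8% and 30.9% of microglia and 1.47% of the knockout lymphoid gate, at median depths before thinning of 5521.5 and 7471 UMIs in monocytes and 3997.5 UMIs in the lymphoid gate. Unthinned shares were 91.3% and 100% of monocytes and 68.1% and 73.6% of microglia, and 16 knockout monocytes and 346 knockout and 136 wild-type microglia were too shallow to be thinned.

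Pilra (chromosome 5, 137820214 to 137834543, minus strand), a receptor for sialylated O-glycoproteins, was the most monocytic gene of the group. It stood at 196 CPM in knockout and 259 CPM in wild-type monocytes, against 28.1 and 26.1 CPM in microglia, a difference of 6.99-fold (6.32 to 7.72) and 9.90-fold (7.94 to 12.2). Within monocytes it followed the Ace-led subset: 289 CPM (265 to 315) in knockout and 610 CPM (474 to 774) in wild-type Ace-led cells, against 69.4 CPM (55.9 to 85.1) and 98.2 CPM (62.9 to 146) in Ly6c2-led cells. Border macrophages gave only 5 and 3 UMIs. In the wild-type library the interval of border macrophages overlapped with those of Ly6c2-led monocytes and of microglia, which were themselves apart.

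Set against all genes, a difference of 4-fold or more between monocytes and microglia was reached by 5 of the 8 receptors in the knockout library, where 20.4% of 8470 genes reached it, and by 3 of 8 in the wild-type library, where 25.1% of 9381 did. Pilra was the 1 higher receptor in both. Siglech and Cd33 were lower in both. Siglece and Cd200r1 passed as lower in the knockout library, on 29 and 4 UMIs, and reached 10 CPM there in microglia only. In the wild-type library Siglece and Cd200r1 stood at 29.2% and 51.3% of the microglial level, on 8 and 4 UMIs. Without the monocytes that held any UMI of P2ry12 or Tmem119, the 5 knockout calls were the same. They were also the same without monocytes that held 3 or more UMIs of neutrophil markers or of choroid and ependymal markers.

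In border macrophages against microglia, 1 of 8 (Siglech, lower) reached 4-fold in the knockout library, beside 7.98% of 8567 genes. In the wild-type library 2 of 8 (Siglech and Siglece, lower) did, beside 19.0% of 9250 genes. That Siglece call rested on 2 UMIs, at 22.7% (2.75 to 82.0) of the microglial level, and held in 7 of 10 alternative settings. Wild-type Cd200r1, at 3.99-fold, lay just under the line and stayed under it in 6 of 10. Between the monocyte subsets, 1 of 7 measured receptors, Pilra, reached 4-fold in the knockout library (4.17-fold, 3.33 to 5.26), where 3.44% of 7205 genes did. In the wild-type library 4 of 8 passed, where 19.0% of 7982 genes did, on 20 Ace-led and 27 Ly6c2-led cells. Pilra (6.22-fold, 3.85 to 10.4) and Lair1 were higher, and Cd33 and Cd200r1 were lower, with 0 UMIs in Ace-led and 5 and 4 UMIs in Ly6c2-led cells. These 2 reached 10 CPM in Ly6c2-led cells only (20.5 and 16.4 CPM), so the filter itself favoured a lower value. The upper limits of their ratios were 2.39-fold and 3.32-fold, so no difference was detectable for them. With cells that pass more than 1 gate counted in, 0 receptors in the knockout and 1 in the wild-type library passed 4-fold between monocytes and microglia, and the log2 ratio of Pilra in the knockout library was 1.48, against 2.80 without them.

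**Figure D2:**
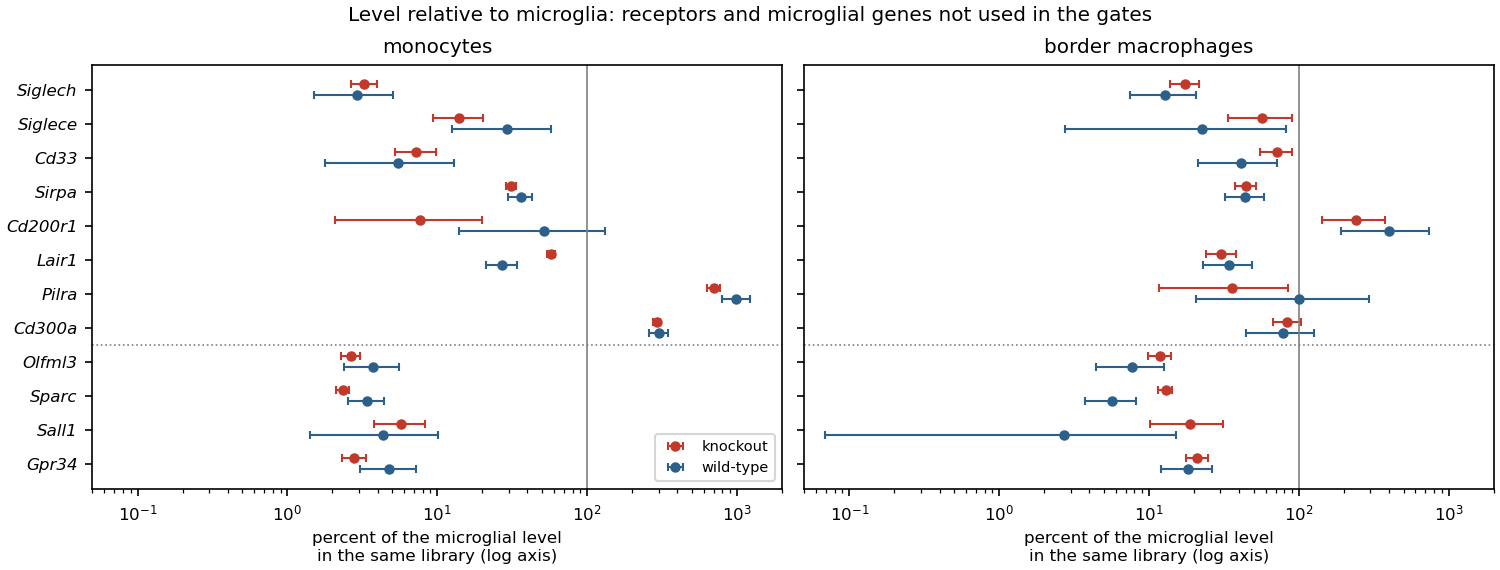
Level of each receptor in monocytes (left) and border macrophages (right) as a percent of its level in microglia of the same library (log axis), for the knockout (red) and wild-type (blue) libraries. Below the dotted line stand 4 microglial genes that no gate used. Bars are exact 95% intervals for counting error, the vertical line marks 100%, and Siglech lies close to the 4 microglial genes (below them in wild-type monocytes) while Pilra and Cd300a lie to the right of 100% in monocytes.

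Between genotypes, the receptors of microglia differed little. A gene was measured if either library held it at 10 CPM or above. The 8715 genes so measured had a median log2 ratio (knockout over wild-type microglia) of −0.29 on the CPM scale. Each relative ratio given from here on has its class's median of genes subtracted. None of the 8 receptors reached 1.5-fold, where 27.8% of genes did, and their median relative log2 ratio was −0.06. On the CPM scale none reached it either, where 35.1% did.

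Within that narrow span the receptors went different ways. Cd300a was the highest in knockout relative to wild-type microglia, at 0.55 (0.51 to 0.59), just under the 1.5-fold line of 0.58. Pilra followed at 0.40 (0.28 to 0.51). Lair1 was the lowest, at −0.27 (−0.30 to −0.25). Cd300a and Lair1 therefore differed from each other by 1.77-fold, a contrast that no scaling factor changes.

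The other receptors lay between. Siglech was at 0.04 (0.02 to 0.05) and Siglece at 0.02 (−0.05 to 0.09). Sirpa (−0.14), Cd33 (−0.15) and Cd200r1 (−0.15) lay slightly below the median of genes. On the CPM scale 6 of the 8 were lower in the knockout library, and Pilra (0.10) and Cd300a (0.26) were higher. Genes in general leaned the same way there, with a median of −0.29. Of all measured genes, 52.3% lay at or below Siglech (−0.26) and 74.8% at or below Pilra.

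**Figure D3:**
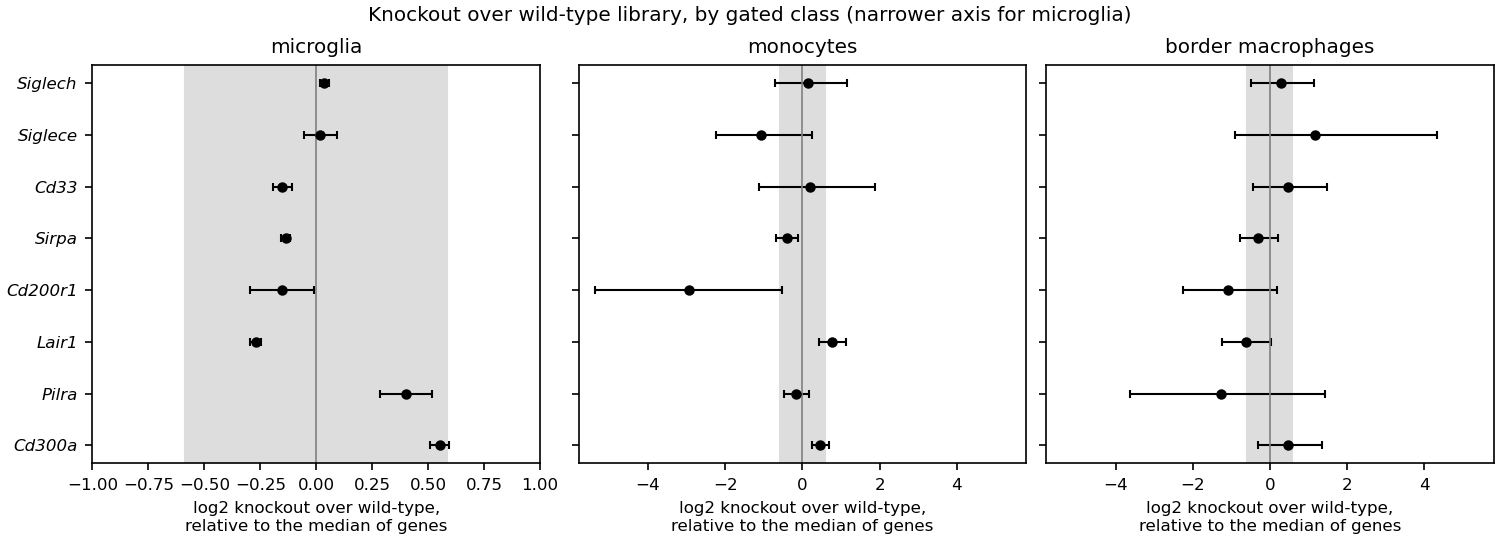
Log2 ratio of knockout over wild-type for each receptor, relative to the median of genes in the class, in microglia, monocytes and border macrophages. Points are ratios of summed counts, bars are exact 95% conditional intervals for counting error, and the grey band spans less than 1.5-fold. In microglia all 8 points lie within the band, with Cd300a at its upper edge. The axis of the microglia panel is narrower.

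Because knockout microglia were shallower, the cells were also compared within 4 bands of UMIs per cell, with bounds at 3000, 6000 and 15000 UMIs. Cd300a was higher in knockout than in wild-type CPM in 4 of 4 bands, at 184 to 228 CPM in knockout and 144 to 189 CPM in wild-type cells. Its intervals were apart in 3 of the 4 bands and overlapped in the band under 3000 UMIs. Lair1 was lower in 4 of 4, at 509 to 556 CPM and 720 to 786 CPM, with no overlap of intervals in any band. On that CPM scale the median of genes was itself between −0.25 and −0.31 in the 4 bands. Relative to the median of its band, Cd300a lay at 0.51 to 0.60 and Lair1 at −0.28 to −0.13. Cd33 (−0.31 to −0.10) and Cd200r1 (−0.78 to −0.06) were also below 0 in 4 of 4, while Siglech, Siglece and Sirpa took both signs.

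Pilra depended on the scale. Its CPM were higher in 2 bands and lower in 2, with overlapping intervals in all 4. Relative to the median of the band it lay above 0 in 4 of 4, at 0.22 to 0.53, and after thinning to 2000 UMIs its relative log2 ratio was 0.09. A near-equal share of thinned microglia, 5.11% in knockout and 5.12% in wild-type, had a Pilra UMI. Classical monocyte markers in microglia summed to 55.8 CPM (knockout) and 14.0 CPM (wild-type), and patrolling monocyte markers to 133.5 and 54.4 CPM. Their part in the Pilra and Cd300a values was not tested.

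**Figure D4:**
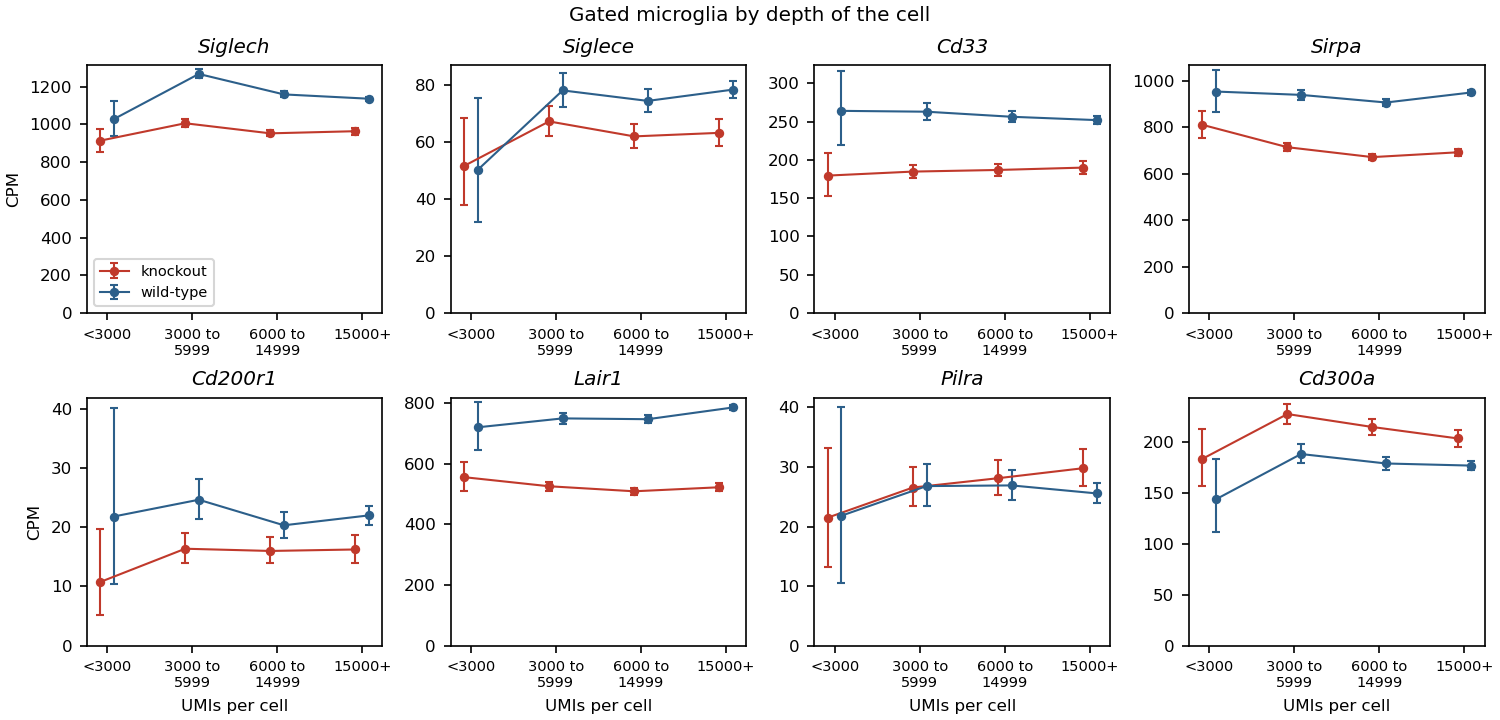
RNA level of each receptor (CPM, axis from 0) in gated microglia of the knockout (red) and wild-type (blue) libraries, within 4 bands of UMIs per cell. Bars are exact 95% Poisson intervals. On this CPM scale, where the median of genes also lies lower in knockout cells, Lair1 and Cd33 lie lower in knockout cells in every band, Cd300a lies higher, and the Pilra intervals overlap.

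In monocytes 3 of 8 receptors reached 1.5-fold relative to the median, where 43.3% of 7766 genes did, so the count of receptors stood near that of genes in general. The median shift there was −0.25 on the CPM scale. On the CPM scale the count was also 3 (44.2% of genes), with Sirpa (−0.64) lower in place of Lair1. Lair1 was higher in knockout monocytes by the relative rule, at 298 CPM (279 to 317) against 208 CPM (163 to 261) in wild-type monocytes, a relative log2 ratio of 0.76 (0.42 to 1.13) that was 0.52 on the CPM scale and so within 1.5-fold there. Siglece (−1.08, −2.25 to 0.26) and Cd200r1 (−2.94, −5.37 to −0.52) were lower, on 8 and 4 wild-type UMIs. Both were under 10 CPM in knockout monocytes (8.94 and 1.23 CPM). They counted as measured only through the wild-type level (22.5 and 11.2 CPM), so the filter itself favoured a lower value. Cd300a stood at 0.46 (0.24 to 0.68) and Sirpa at −0.40 (−0.68 to −0.10).

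The Lair1 values of the subsets were not alike, a difference that was not tested. Ace-led cells, which hold more Lair1, numbered 349 of 538 in the knockout library and 20 of 47 in the wild-type library. Within Ace-led cells the relative log2 ratio of Lair1 was −0.07 (−0.46 to 0.35). Within Ly6c2-led cells it was 1.27 (0.56 to 2.08), on 189 knockout and 17 wild-type UMIs. The knockout Ly6c2-led cells are also those with neutrophil markers at 5229 CPM. Over all monocytes, without cells of 3 or more neutrophil-marker or choroid-marker UMIs, the value was 0.74.

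Pilra was lower in knockout Ace-led cells, at −0.83 (−1.20 to −0.45), and at −0.26 (−0.92 to 0.45) in Ly6c2-led cells, although over all monocytes it stood at −0.15. Sirpa was at −0.63 (−1.05 to −0.17) in Ace-led cells. Of genes in general, 56.4% reached 1.5-fold in Ace-led and 50.0% in Ly6c2-led cells, on 20 and 27 wild-type cells. The knockout Ace-led cells carried choroid and ependymal markers at 1212 CPM (Ttr, Folr1 and Enpp2 all detected), and their part in the subset values was not tested.

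In border macrophages 4 of 8 receptors reached 1.5-fold, where 60.5% of 8628 genes did. Siglece was higher at 1.17 (−0.89 to 4.32), and Cd200r1 (−1.07, −2.25 to 0.19), Lair1 (−0.62, −1.25 to 0.04) and Pilra (−1.26, −3.62 to 1.42) were lower. The relative intervals of all 8 receptors include 0, so no difference was detectable at the depth of 24 wild-type cells; on the CPM scale only the interval of Lair1 ended below 0, at −0.08.

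The machinery around the receptors was described from lists of related genes in microglia, where 27.8% of all genes passed 1.5-fold in either direction. Of 15 other inhibitory receptors 9 were measured. Of these 1, Clec4a2, a C-type lectin with an inhibitory motif, was higher, at 153 CPM in knockout and 123 CPM in wild-type cells (0.61), but within 1.5-fold on the CPM scale, where Havcr2 (−0.59), which encodes TIM-3, was lower. The list median was 0.09. Vsir, the checkpoint receptor VISTA, was more abundant than any of the 8 receptors, at 1330 and 1399 CPM (0.22).

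Of 14 activating relatives and adaptors 3 were measured in microglia, and these 3 were higher on the relative scale, beside 27.8% of all genes that passed in either direction: Tyrobp, which encodes the DAP12 adaptor used by Siglec-H, at 3017 CPM in knockout and 2298 CPM in wild-type cells (0.69), Hcst, which encodes the adaptor DAP10, at 46.6 and 32.3 CPM (0.82), and Cd300c2, an activating relative of Cd300a, at 655 and 501 CPM (0.68). On the CPM scale none of the 3 reached 1.5-fold.

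Effectors of the inhibitory motifs did not share a direction. Of 13 measured effectors 2 were higher, a share below the 27.8% of all genes, with a list median of 0.19. They were Csk (163 CPM in knockout and 130 CPM in wild-type cells, 0.62), a kinase that restrains Src-family kinases, and Dok3 (53.5 and 38.1 CPM, 0.79), an adaptor that dampens immune-receptor signalling. The phosphatase genes lay within 1.5-fold on the relative scale: Ptpn6, encoding SHP-1, at 201 and 255 CPM (−0.05), Ptpn11, encoding SHP-2, at 24.2 and 31.5 CPM (−0.09), and Inpp5d, encoding SHIP1, at 321 and 531 CPM (−0.43). On the CPM scale none of the effectors was higher and 2 were lower, Inpp5d (−0.73) and the kinase gene Syk (−0.64).

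Among ligands, the C1q chains that LAIR1 binds were higher in knockout microglia, with C1qa at 11808 CPM in knockout and 8212 CPM in wild-type cells (0.82), C1qb at 0.86 and C1qc at 0.91; on the CPM scale only C1qc (0.62) passed. Cd47, the SIRPα ligand, stood at 240 and 251 CPM (0.23). Clec2d, a C-type lectin ligand of NK receptors, was lower, at 6.87 and 13.8 CPM (−0.72), and reached 10 CPM in the wild-type library only. Cd200 gave 1 UMI in each library.

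Sialic acid genes, which make or remove the sugars that Siglecs and PILRα read, split both ways. Of 13 measured, 3 were higher and 2 lower, beside 27.8% of all genes in either direction, with a list median of 0.31; without the shift the counts were 2 and 3, as Nans no longer passed and the sialyltransferase St3gal2 (−0.66) did. Npl, an enzyme of sialic acid breakdown, stood at 94.6 CPM in knockout and 54.4 CPM in wild-type cells (1.09), and the sialyltransferase St3gal4 (0.94) and the synthase Nans (0.67) were also higher. The sialyltransferases St8sia4 (6.43 and 19.8 CPM, −1.33), which builds polysialic acid, and St6gal1 (15.2 and 30.0 CPM, −0.69), which caps N-glycans with sialic acid, were lower. St8sia4 reached 10 CPM in the wild-type library only.

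Many activating relatives and adaptors were more abundant in monocytes. Of those measured, 7 of 10 in the knockout and 8 of 11 in the wild-type library were 4-fold or more above microglia. The listed gene called in the wild-type library only, Siglec1, stood at 14.1 CPM there on 5 monocyte UMIs. It was not measured in the knockout library. Of all genes, 20.4% and 25.1% passed in either direction. Each relative called higher stood at 8.12 CPM or less in microglia and so counted as measured only through its monocyte level. Only Tyrobp, Hcst and Cd300c2 reached 10 CPM in microglia, so only these could have been called lower. The counts thus depend on that filter. Tyrobp, Hcst and Cd300c2 lay within 4-fold, the last at 810 and 489 CPM in monocytes, against 655 and 501 CPM in microglia. In monocytes Pilrb1 stood at 81.4 CPM in knockout and 84.3 CPM in wild-type cells and Pilrb2 at 166 and 95.5 CPM, against at most 3.53 CPM for either gene in microglia. Sirpb1c stood at 164 and 180 CPM, against 2.09 and 0.134 CPM in microglia. How the authors' counting assigned reads shared between such close copies is not given in the sources used here, so the monocyte levels of Pilra, Sirpa and Cd300a are uncertain to that extent. Zcwpw1 overlaps Pilra on the opposite strand, and the predicted genes Gm15928, Gm75159 and Gm73708 overlap Lair1, Sirpa and Cd300a on the same strand.

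The mean number of receptors detected per cell was highest in microglia. After thinning to 2000 UMIs, monocytes had UMIs of a mean of 1.98 of the 8 receptors in knockout and 2.19 in wild-type cells. Border macrophages averaged 1.66 and 2.05. Microglia averaged 3.05 and 3.40, with a median of 3 in both libraries. In knockout border macrophages the median was 1, with 12.8% of cells holding no receptor UMI and 41.5% holding 1 receptor. The knockout lymphoid gate averaged 0.221. Siglech was the most widely detected, in 82.2% of thinned knockout and 87.8% of wild-type microglia, followed by Sirpa (73.6% and 82.0%) and Lair1 (63.4% and 76.1%).

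Over the 8 class and library points, the genes whose log2(CPM + 1) followed each receptor most closely were ranked among 8446 genes. Siglech was followed by Gna15 (r = 0.996), by P2ry12, itself a gate gene (0.991), and by Man2b1 (0.991). Cd300a was followed by Ryr1, Trem3 and 4833407H14Rik (0.993 to 0.994), and Pilra by Pot1b, Lrrfip1 and Tnip1 (0.981 to 0.990). The lead genes were Csad for Cd33, Smg9 for Siglece, Fmnl3 for Sirpa, Rasgef1b for Cd200r1 and Rsbn1 for Lair1. Among the receptors themselves Pilra and Cd300a had r = 0.90 and Cd33 and Pilra −0.92. The points share libraries, differ in depth and number 8, so these values only describe likeness.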

How the data were processed

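What was deposited are raw UMI counts of genes by barcodes (10x Genomics 3′ v2 chemistry), as whole numbers. They were made with Cell Ranger 7.0.0, per the file headers, while the labels' protocols name version 6.0, and reads were aligned to GRCm39, per the labels' protocols. Whether intronic reads were counted is not given in the sources used here. Seurat and a filter on cells under 500 genes are named in the labels' protocols. The deposited counts still held barcodes under that filter.

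Cells under 500 genes or above 10% mitochondrial UMIs were dropped, leaving 7573 in the knockout and 5577 in the wild-type library. Gates were exclusive, so 1126 and 273 cells that passed more than 1 gate (median 15113.5 and 22576 UMIs) were set aside. They may be doublets, for which no caller was run. Another 1096 and 229 cells passed no gate. UMIs were summed per class and divided by the class total (CPM). A gene reaching 10 CPM on either side of a comparison counted as measured and was called by size alone: 1.5-fold between genotypes, relative to the median of genes, and 4-fold between classes, on the CPM scale. With 1 library per genotype no test was made. Intervals are exact (Poisson for levels, conditional for ratios, binomial for shares, 95%), and a gene with no UMI was given a limit of 3 counts. Low-depth cells were left out where cells were thinned to 2000 UMIs. The receptors, gates, gene lists, markers and naming rule (all 8 receptors, Msn, list members past 1.5-fold in microglia, and the 3 genes most like each receptor) were chosen with earlier results of these data known. Vsir, Siglec1, the phosphatase genes, Cd47, Cd200 and the Pilrb and Sirpb1 genes were named after their values were seen. The ratio method was tested on simulated counts. Gene coordinates came from GENCODE on GRCm39 by identifier (54749 of 55357 matched), and promoters from RefSeq on GRCm38.p6. Python 3.11.15, numpy 2.4.6, scipy 1.17.1 and pandas 2.3.3 were used. Alternatives covered scaling, floors, gates, cell filters, depth and cell weighting.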

Additional observations from a re-analysis of the deposited data

Results flagged for a closer look

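Lair1 had opposite signs in the myeloid classes. The log2 ratio (knockout over wild-type, relative to the median of genes) was 0.76 in monocytes and −0.27 in microglia, and the difference between the classes was not tested. The intervals, 0.42 to 1.13 and −0.30 to −0.25, cover counting error in 1 library per genotype. The monocytes held 349 Ace-led and 171 Ly6c2-led cells in the knockout library and 20 and 27 in the wild-type library, and within Ace-led cells the value was −0.07.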

How the results depend on the processing

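No paired analysis was possible because each genotype has 1 library and the labels give no shared replicate numbers; for the same reason no replicate could be left out. For microglia, the count of receptors past 1.5-fold between genotypes was 0 in the main analysis. It was 1 with mixed cells counted in, with median-of-ratios scaling (shift −0.43) and with genes at 1 CPM or more (shift −0.39), each time Cd300a, and 2 (Pilra and Cd300a) over all kept cells with no gate. Other alternatives for microglia gave 0. For monocytes the count went to 0 with mixed cells counted in, from 3 in the main analysis, and Lair1 then reversed to −0.18 and Cd200r1 came to −0.40. Cd33 in monocytes, 0.19 in the main analysis on 5 wild-type UMIs, reached 1.16 after thinning and 0.63 with the mean of per-cell CPM, both past 1.5-fold, and Cd200r1 fell under 10 CPM with that mean and without neutrophil-marker and choroid-marker cells. For border macrophages the main count of 4 became 0 with mixed cells counted in, 2 after thinning to 2000 UMIs and 2 with the mean of per-cell CPM. Siglece (−0.0555) and Pilra (0.45) reversed there with mixed cells counted in, and Cd200r1 came to 0.00 after thinning. Counting mixed cells in also took the class contrasts past 4-fold to 0 (monocytes, knockout), 1 (monocytes, wild-type), 0 (border macrophages, knockout) and 0 (border macrophages, wild-type), from 5, 3, 1 and 2. Thinning, and leaving out cells with P2ry12 or Tmem119 UMIs, each gave 2 for knockout border macrophages (Siglech, and Pilra on 0 UMIs in that class, so with no ratio). That last alternative could not be run in the wild-type library, which kept under 20 such cells. It, the restriction of microglia to 4000 to 10000 UMIs and the removal of neutrophil-marker or choroid-marker cells were chosen after seeing the data. Of 634 single-gene values under the alternatives, 521 moved by less than their counting interval and 109 moved by more. The other 4, of receptors called in the main analysis, changed sign or came to 0.00. Calls lost without a sign change, and sign changes of uncalled receptors, are not counted in that 4. Siglech in microglia, for example, kept its sign in 6 of 13 alternatives, and Lair1 in border macrophages its call in 6 of 11. The cause of these changes was not tested. Wild-type monocytes and border macrophages number 47 and 24 cells, so low genes there rest on few UMIs.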

Other observations

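Receptor levels were compared across activation states of microglia. In each library, the top 10% of cells of 4000 UMIs or more by the summed level of a state's genes were set against the rest. Siglech was lower in chemokine-high cells (Ccl3 and Ccl4), at 816 CPM against 985 CPM in the rest of the knockout microglia and 1038 CPM against 1168 CPM in the wild-type microglia, log2 ratios of −0.27 (−0.33 to −0.21) and −0.17 (−0.21 to −0.13). Siglece followed at −0.32 (−0.56 to −0.09) and −0.29 (−0.46 to −0.11). Lair1 (−0.00 and 0.01), Sirpa (0.01 and 0.03) and Cd300a (−0.02 and 0.03) lay near 0 in the same cells. Cd33 was at −0.05 and −0.17 (−0.26 to −0.07), and the scarce Cd200r1 took opposite signs, 0.43 (0.03 to 0.80) in the knockout and −0.16 (−0.49 to 0.15) in the wild-type library. In cells high for disease-associated genes (Apoe, Lpl, Cst7, Spp1, Itgax and Clec7a), Siglech was at −0.15 in both libraries. Cd33 (−0.01 and −0.19), Cd300a (−0.16 and −0.06) and Lair1 (−0.12 and −0.08) also lay at or below 0 there. In interferon-high cells Siglech was at −0.11 (−0.16 to −0.05) in the knockout and −0.05 (−0.09 to −0.01) in the wild-type library. Sirpa was at −0.10 (−0.16 to −0.03) and −0.07 (−0.11 to −0.02), and the intervals of the other receptors included 0. In heat-shock-high cells Siglech was at 0.05 (−0.01 to 0.10) and 0.03 (−0.01 to 0.07). Median depth in chemokine-high knockout cells was 6318 UMIs, against 6305 UMIs in the rest. In the wild-type library it was 6462 against 8864 UMIs. Wild-type depth was also lower in interferon-high (6077 against 8879 UMIs) and heat-shock-high cells (6480 against 8774 UMIs). It was 7859 against 8560.5 UMIs for the disease-associated state. The part of depth in the wild-type values was not tested.

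Border macrophages were also split by MHC class II genes. In the wild-type library all 10 Cd200r1 UMIs lay in the 16 cells of the lower class II group and 0 in the 8 of the upper group. In the knockout library 8 lay in the 58 upper and 11 in the 77 lower cells. The upper groups were not alike, with a median class II level of 42595 CPM in wild-type and 1853 CPM in knockout cells. The lower groups had a median of 0 in both libraries. Lair1 was higher in the wild-type upper group, at a log2 ratio of 1.39 (0.24 to 2.60), beside 0.30 (−0.38 to 0.99) in the knockout library.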
